A study of Mus musculus with 6 samples.

Results

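Unconventional myosins are the actin-based motors that do not build muscle-type filaments. The 10 genes described here are those of classes III, V, VI, VII, IX and X, taken by name from the deposited matrix as Myo3b, Myo5a, Myo5b, Myo5c, Myo6, Myo7a, Myo7b, Myo9a, Myo9b and Myo10, so 10 of 12803 listed genes. The levels come from mRNA sequencing of 6 libraries of cultured mouse kidney cells, 3 of the KO line (podocyte-derived cells of genotype Myosin 1e KO) and 3 of the WT line (the Mundel murine podocyte line, genotype WT). A heterozygous genotype that the design text also names was not analysed here. Each genotype is represented by 1 cell line, so genotype and line cannot be told apart. The labels give no treatment, and no detail of how the knockout line was made was used here. The replicates are called biological without a statement on separate cultures, so every p-value measures the spread between these samples.

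Myosins of these classes share a motor head, a neck that binds calmodulin or related light chains, and a tail that chooses the cargo. Class V motors carry vesicles and recycling endosomes, class VI moves towards the minus end of actin and serves endocytosis, and class VII and class III motors work in microvilli and in the stereocilia of sensory cells. Class X builds filopodia, and class IX motors carry a signalling domain in the tail. In the kidney, podocytes depend on actin-based foot processes, while tubular epithelia carry the microvilli and apical recycling endosomes in which several of these motors are known to act.

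The KO line had 5 of the 10 genes at far higher levels than the WT line. These were the class III gene Myo3b, the class V genes Myo5b and Myo5c, and the class VII genes Myo7a and Myo7b, all of them at less than 2.5 CPM (counts-per-million) in every WT library. Myo9a fell to 28.8% of its WT level and Myo6 to 79.7%. Myo5a, Myo9b and Myo10 were well expressed in both lines and did not pass the test.

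Myo5c and Myo5a lie in tandem on chromosome 9, on the plus strand, with 8.332 kb between the end of Myo5a and the start of Myo5c (GRCm38). They are the clearest pair of unlike neighbours among the 10 genes, so the 250 bases before the RefSeq start of each are shown, with those of Myo3b and Myo9a, which stood highest above and furthest below WT. The sequences are RefSeq's for build GRCm38.p6, each on its gene's plus strand, and capitals mark every CpG. The gene bounds printed below are those of GENCODE, which place the start of Myo5a inside its RefSeq window and that of Myo9a before its window, so these windows lie in part (Myo5a) or wholly (Myo9a) within the GENCODE gene. The Myo3b window overlaps another GENCODE gene on the same strand, Gm13631 (70038911 to 70042406).
Myo5c, chr9:75231764-75232013: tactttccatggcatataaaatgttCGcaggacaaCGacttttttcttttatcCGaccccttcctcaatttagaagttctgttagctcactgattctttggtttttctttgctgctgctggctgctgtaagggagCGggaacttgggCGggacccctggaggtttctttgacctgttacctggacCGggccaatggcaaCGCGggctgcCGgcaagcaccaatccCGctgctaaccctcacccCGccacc
Myo5a, chr9:75070956-75071205: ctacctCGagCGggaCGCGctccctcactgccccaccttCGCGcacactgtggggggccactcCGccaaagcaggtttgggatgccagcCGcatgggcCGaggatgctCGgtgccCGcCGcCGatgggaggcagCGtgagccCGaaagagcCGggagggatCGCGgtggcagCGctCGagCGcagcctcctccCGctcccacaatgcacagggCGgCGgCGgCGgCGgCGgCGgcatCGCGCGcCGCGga
Myo3b, chr2:70038876-70039125: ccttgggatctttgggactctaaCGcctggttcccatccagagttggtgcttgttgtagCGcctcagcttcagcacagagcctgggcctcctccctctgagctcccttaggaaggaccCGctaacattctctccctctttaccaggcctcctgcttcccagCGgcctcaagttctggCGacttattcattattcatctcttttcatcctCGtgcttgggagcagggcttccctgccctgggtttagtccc
Myo9a, chr9:59750924-59751173: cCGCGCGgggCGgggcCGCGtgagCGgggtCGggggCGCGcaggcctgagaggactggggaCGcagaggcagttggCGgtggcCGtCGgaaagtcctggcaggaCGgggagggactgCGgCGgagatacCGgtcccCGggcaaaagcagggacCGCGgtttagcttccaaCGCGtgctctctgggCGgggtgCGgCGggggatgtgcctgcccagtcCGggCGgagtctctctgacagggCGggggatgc
The window before Myo5a held 34 CpGs and 74.0% G and C, and that of its neighbour Myo5c 11 CpGs and 52.8%. Myo9a had 29 CpGs and Myo3b 6, against a median of 6 over 32851 RefSeq windows. Windows of 8 of the 10 members were used, 10 windows in all.

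**Figure D1:**
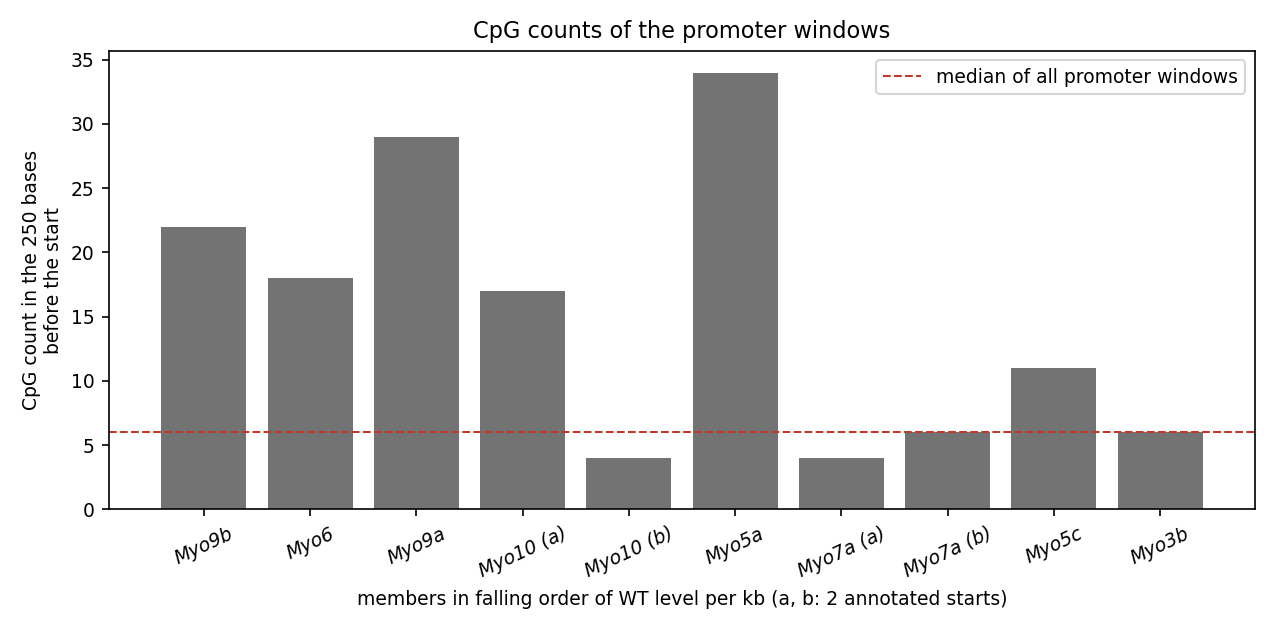
CpG count (vertical axis) in the 250 bases before each RefSeq start, for 8 members ordered by falling WT level per kilobase, with a and b for 2 annotated starts of a gene and a dashed line at the median of 6 over all windows. Myo9b, Myo6, Myo9a, Myo5a and the upstream start of Myo10 had 17 to 34 CpGs, while Myo3b, Myo5c and Myo7a had 4 to 11.

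The plot sets the CpG counts beside the WT level for 8 of the 10 members, without Myo5b and Myo7b. Windows of these genes, both low in WT and higher in the KO line, were not used here. The CpG comparison and the motif counts therefore do not cover them. Each of the 5 members with over 80 CPM in every WT library had a window of 17 or more CpGs, a count that 23.5% of all windows reached. The 3 members near absence in WT whose windows were used held 4 to 11. This is a description of annotated starts, and which start these cells use was not measured. The upstream start of Myo10 had 17 CpGs and the internal one 4, so the internal window lay in the range of the members near absence in WT. The E-box CAGGTG, searched on both strands, occurred in none of the 10 windows and in 17.2% of all windows. The grainyhead motif AACCGGTT and its looser form AACCNGTT, which contains it, were also in none, against 0.116% and 1.79% of all windows.

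Depth and identity were checked before the members were compared. The listed genes held 35447096 to 41360689 reads in the KO libraries and 35763961 to 42106461 in the WT libraries, so 3 reads equal 0.0703 to 0.0856 CPM. Myo1e, the targeted gene, was at 17.3 ± 1.4 CPM in KO cells and 177 ± 8.4 CPM in WT cells (SD, n = 3 each), a log2 fold change of -3.35 in the limma fit over all genes (adjusted p = 2.06e-08), as the labels have it. The marker counts that follow stand beside 34.3% higher and 33.8% lower among all genes tested, at an adjusted p under 0.05 by limma. Of 11 tested podocyte markers 4 were higher and 6 lower in the KO line (36.4% and 54.5%). Their summed level was 1318 to 1657 CPM in KO libraries and 2200 to 2537 CPM in WT libraries. The podocyte transcription factor Wt1 was at 0.125 ± 0.10 CPM in KO cells and 4.40 ± 2.0 CPM in WT cells. It exceeded the filter described below in no KO library, so it could enter the test only through the WT line. Clic5, 1 of the 4 that were higher, was at 3.11 ± 0.49 CPM in KO cells and 1.11 ± 0.34 CPM in WT cells. The slit-diaphragm gene Nphs1 was not analysed here. Of 18 tested markers of simple and collecting duct epithelium 16 were higher and 2 lower in the KO line (13 exceeded the filter described below in no WT library, so could enter the test only through the KO line), with a summed level of 8944 to 9677 CPM in KO libraries against 363 to 369 CPM in WT libraries. Cldn3, Cldn7, Esrp1, Wfdc2 and Mal2 of that list had 0 reads in the WT libraries. Of 8 tested mesangial and fibroblast markers 7 were lower in the KO line, with a summed level of 335 to 663 CPM in KO libraries against 4801 to 4973 CPM in WT libraries. Pdgfrb of that list exceeded the filter in no KO library, so it could enter the test only through the WT line. Of 5 tested proximal tubule markers 4 were lower in the KO line (summed 138 to 181 CPM in KO against 2004 to 2763 CPM in WT), as were both tested endothelial markers (10.6 to 12.6 CPM in KO against 46.2 to 50.8 CPM in WT). Neither of the 2 tested leukocyte markers passed (56.2 to 75.5 CPM in KO against 37.1 to 56.9 CPM in WT). Fewer cells of a type and less RNA per cell cannot be told apart in such libraries.

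Across all 12616 genes tested with limma, 68.1% passed at an adjusted p under 0.05, 34.3% higher and 33.8% lower in the KO line, and the median log2 fold change was 0.01. All 10 members were tested and 7 of them passed, a share near that background, with 5 higher and 2 lower. The groups did not overlap in 8 of 10 members, against 73.5% of all genes tested. The median log2 fold change of the 10 was 2.63. Myo3b, Myo5c, Myo7a and Myo7b exceeded the filter of 0 log2 CPM in no WT library and Myo5b in 1, so these 5 entered the test because they were high in the KO line and had to differ. The other 5 exceeded it in all 6 libraries. The sizes of the differences and the levels behind them follow by class.

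**Figure D2:**
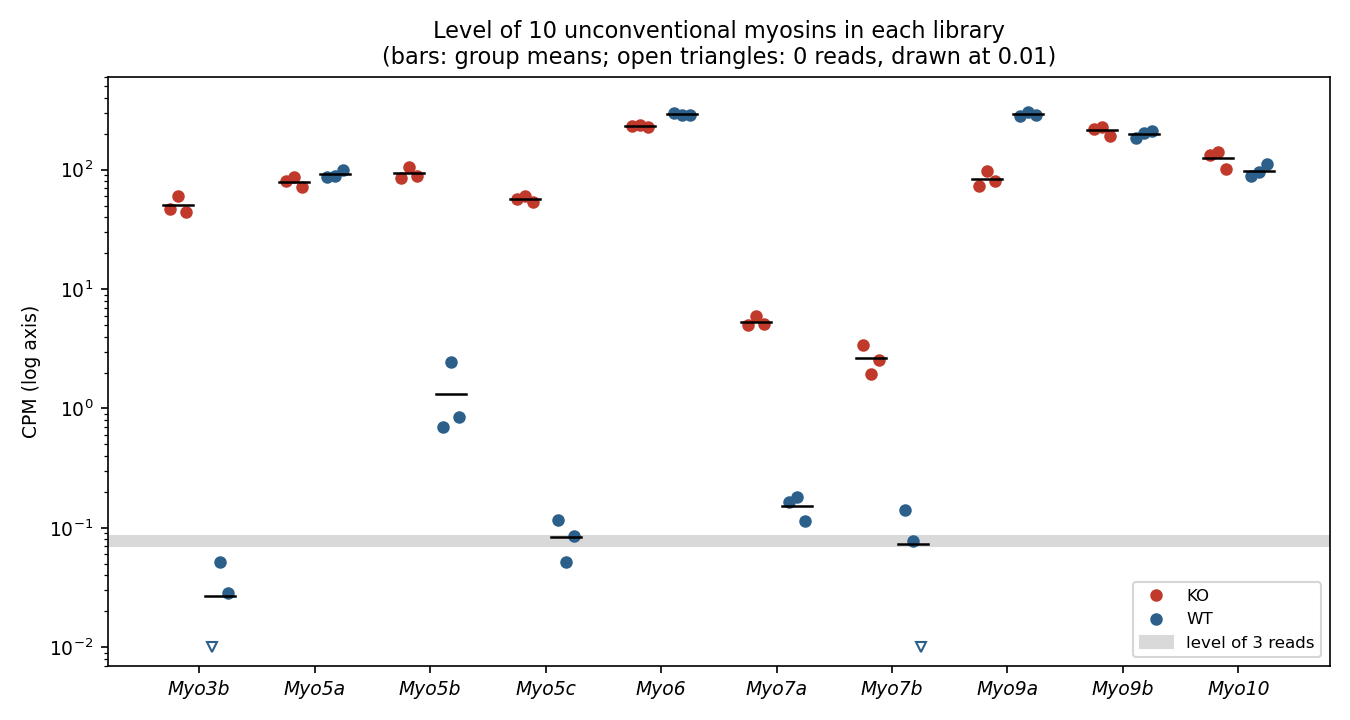
CPM on a log axis for each of the 10 genes, KO libraries in red left of WT libraries in blue, with bars at group means, a grey band at the level of 3 reads and open triangles for libraries with 0 reads. Myo3b, Myo5c, Myo7a and Myo7b lie between 0 and 0.181 CPM in WT, in or close to the band, while Myo5a, Myo6, Myo9b and Myo10 lie close together in both lines.

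Among the class V genes, only the vesicle transporter Myo5a was abundant in both lines. Myo5c (ENSMUSG00000033590, chromosome 9, 75232020 to 75305451), known from glandular epithelia, where it associates with secretory granules, was at 56.7, 60.8 and 53.4 CPM in the KO libraries and at 0.117, 0.0517 and 0.0848 CPM in the WT libraries. All KO libraries stood far above all WT libraries, in which the gene had 5, 2 and 3 reads. Summed over each group these were 6446 reads in KO against 10 in WT, a ratio of 664 on the CPM scale (exact 95% interval 361 to 1385, Clopper-Pearson, adjusted p = 2.41e-08 by limma). This interval and the exact intervals below cover counting error alone, while the limma intervals rest on the spread between libraries.

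Myo5b (ENSMUSG00000025885, chromosome 18, 74440936 to 74771493, plus strand), the motor of Rab11 recycling endosomes that is mutated in human microvillus inclusion disease, was at 86.0, 106 and 89.1 CPM in the KO libraries. In the WT libraries it was at 0.703, 2.43 and 0.848 CPM, so that WT replicate 2 stood well above the other WT libraries. The groups were nevertheless far apart. The fitted log2 fold change was 6.33 (SE 0.40, adjusted p = 2.32e-06 by limma). Without WT replicate 2 the WT mean was 0.775 CPM, against 1.33 CPM with it, and the log2 fold change 6.87.

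Myo5a (ENSMUSG00000034593, chromosome 9, 75071015 to 75223688), which carries melanosomes and other vesicles, was at 80.6, 86.1 and 71.4 CPM in the KO libraries and at 86.8, 88.6 and 98.7 CPM in the WT libraries. The highest KO library lay just below the lowest WT library. The log2 fold change was -0.20 (95% interval -0.42 to 0.01, adjusted p = 0.0819 by limma). Leaving out KO replicate 2 brought it past the threshold (adjusted p = 0.0497), and the 15 alternatives gave 0.0497 to 0.231.

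The class V pool thus had a different makeup in each line. Per kilobase of exon, Myo5b made up 46.0 ± 1.9%, Myo5c 28.2 ± 0.87% and Myo5a 25.8 ± 1.2% of class V in the KO line. In the WT line Myo5a made up 97.7 ± 1.5%, Myo5b 2.16 ± 1.6% and Myo5c 0.139 ± 0.059% (SD, n = 3 each). None of these shares overlapped between the lines, and an exact two-sided permutation test gave p = 0.1 for each, the smallest that 3 libraries against 3 allow (0.125 adjusted over the 5 shares tested). The summed class V level was 20.8 ± 1.8 CPM per kb in the KO line against 6.31 ± 0.41 CPM per kb in the WT line, 3.30 times as high (exact permutation p = 0.1, again the smallest possible). As given above, Myo5b and Myo5c entered the test because they were high in the KO line. The shares and the sum restate that difference and are no further support for it.

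Myo3b encodes the class III motor with a kinase domain, known from stereocilia and photoreceptors, where class III myosins bind espin and its relatives. It (ENSMUSG00000042064, chromosome 2, 70039126 to 70429198, plus strand) was at 47.3, 60.0 and 44.0 CPM in the KO libraries and at 0, 0.0517 and 0.0283 CPM in the WT libraries. In KO cells its level per kilobase, 7.16 ± 1.2 CPM per kb, was at the median of all listed genes (percentile 50.9), while in WT cells it was at percentile 0.853. All WT libraries were below the level of 3 reads. The 5683 KO reads and 3 WT reads gave a ratio of 1950 (exact 95% interval 667 to 9460), and the WT mean was 0.0267 CPM, or 0.0141 CPM without WT replicate 2. The adjusted p was 1.33e-07 by limma, and the fitted size depends on the prior, since the log2 fold change was 10.03 on the deposited scale and 3.45 with a pseudocount of 5 CPM. Espn, the espin gene, was at 4.11 ± 0.19 CPM in KO cells and 4.65 ± 0.38 CPM in WT cells. The gene Gm13631 overlaps the start of Myo3b on the same strand and was not analysed here.

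Both class VII genes were low in the KO line and near absence in the WT line. Myo7a (ENSMUSG00000030761, chromosome 7, 98051060 to 98119524, minus strand), the Usher syndrome motor of hair cells and retinal pigment epithelium, was at 5.04, 5.94 and 5.07 CPM in the KO libraries and at 0.164, 0.181 and 0.113 CPM in the WT libraries. The 604 KO reads and 18 WT reads gave a ratio of 34.5 (exact 95% interval 21.7 to 58.7, adjusted p = 6.34e-07 by limma). The KO libraries lay close together. Myo7b (ENSMUSG00000024388, chromosome 18, 31959234 to 32036961, minus strand), the motor at the tips of brush border microvilli in gut and kidney, was at 3.42, 1.94 and 2.55 CPM in the KO libraries. It was at 0.141, 0.0776 and 0 CPM in the WT libraries, with 303 KO reads and 9 WT reads (ratio 34.7, exact 95% interval 18.0 to 76.5, adjusted p = 0.000149 by limma). Even the lowest KO library was well above the highest WT library. The WT mean was 0.0727 CPM and 0.0388 CPM without WT replicate 1. Myo7b made up 38.6 ± 8.5% of class VII per kilobase in the KO line and 29.4 ± 27% in the WT line, which differed by less than the spread between the WT libraries (exact permutation p = 0.8). The intervals of the Myo7a and Myo7b ratios overlapped, and the WT reads were too few to compare the proportions of the 2 genes.

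In class IX, Myo9a was lower in the KO line and Myo9b did not pass. Myo9a (ENSMUSG00000039585, chromosome 9, 59750896 to 59928866, plus strand), a motor with a signalling domain in its tail, was at 73.4, 98.0 and 80.3 CPM in the KO libraries and at 283, 302 and 290 CPM in the WT libraries. The groups were far apart, and the fitted log2 fold change was -1.81 (SE 0.11, adjusted p = 1.70e-06 by limma). Its relative Myo9b (ENSMUSG00000004677, chromosome 8, 71272714 to 71360713, plus strand), which has the same kind of domain and is known from leukocytes, was at 221, 227 and 192 CPM in the KO libraries and at 185, 203 and 212 CPM in the WT libraries. These ranges overlapped. The log2 fold change was 0.09 with a 95% interval of -0.12 to 0.30 (adjusted p = 0.406 by limma), which leaves room for a change of up to 1.23-fold upwards. Haus8 overlaps the start of Myo9b on the opposite strand, and the strand setting of the counting is not given in the sources used here. Myo9a made up 18.4 ± 2.1% of class IX per kilobase in the KO line against 45.6 ± 1.4% in the WT line (exact permutation p = 0.1, 0.125 adjusted over the 5 shares), and the class as a whole was at 34.9 ± 3.0 CPM per kb in KO cells against 49.1 ± 2.3 CPM per kb in WT cells (exact permutation p = 0.1).

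Myo6 (ENSMUSG00000033577, chromosome 9, 80165031 to 80311729, plus strand), the minus-end motor of clathrin-coated and uncoated endocytic vesicles, was at 233, 236 and 228 CPM in the KO libraries and at 296, 290 and 289 CPM in the WT libraries. The difference was small next to those above, but the libraries of each line lay within a few percent of each other and the groups did not overlap. The fitted log2 fold change was -0.33 (SE 0.07, adjusted p = 0.00259 by limma, 0.00247 to 0.0152 over the 15 alternatives).

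Myo10 (ENSMUSG00000022272, chromosome 15, 25622525 to 25813673, plus strand), which carries integrins to filopodial tips, was at 132, 140 and 101 CPM in the KO libraries and at 87.8, 96.0 and 111 CPM in the WT libraries. KO replicate 3 lay inside the range of the WT libraries, and the other KO libraries above it. The log2 fold change was 0.33 (95% interval 0.02 to 0.65, adjusted p = 0.0583 by limma). It passed without KO replicate 3 (log2 fold change 0.47, adjusted p = 0.00856), without WT replicate 3 (adjusted p = 0.0296) and after quantile normalization (adjusted p = 0.0451), with 0.00856 to 0.183 over the 15 alternatives.

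**Figure D3:**
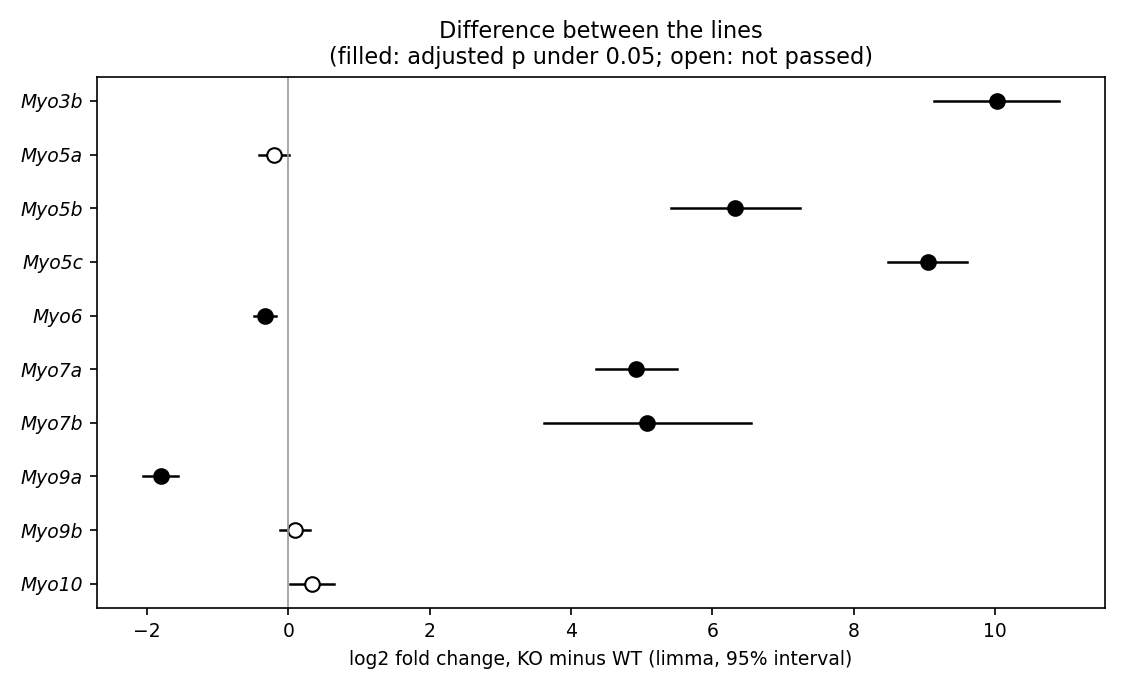
Log2 fold change, KO minus WT, with its 95% interval from limma for each of the 10 genes, filled where the adjusted p was under 0.05. Myo3b, Myo5b, Myo5c, Myo7a and Myo7b lie between 4.93 and 10.03 and Myo9a at -1.81. Myo6 (-0.33, filled) and Myo10 (0.33, open) lie about as far from 0, and Myo5a (-0.20) and Myo9b (0.09), both open, lie nearer.

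Levels of different genes were compared per kilobase of annotated exon. In the KO line the order was Myo9b (28.5 ± 2.5 CPM per kb), Myo6 (19.2 ± 0.32), Myo10 (12.3 ± 2.0), Myo5b (9.59 ± 1.1), Myo3b (7.16 ± 1.2), Myo9a (6.44 ± 0.98), Myo5c (5.87 ± 0.38), Myo5a (5.36 ± 0.50), Myo7a (0.624 ± 0.059) and Myo7b (0.398 ± 0.11). The library ranges of Myo10 and Myo5b overlapped, as did those of Myo3b with Myo9a, Myo9a with Myo5c and Myo5c with Myo5a. In the WT line the order was Myo9b (26.7 ± 1.8 CPM per kb), Myo6 (24.1 ± 0.33), Myo9a (22.4 ± 0.75), Myo10 (9.72 ± 1.2), Myo5a (6.17 ± 0.43), Myo5b (0.136 ± 0.098), Myo7a (0.0178 ± 0.0041), Myo7b (0.0110 ± 0.011), Myo5c (0.00872 ± 0.0034) and Myo3b (0.00379 ± 0.0037). The ranges of the 4 lowest overlapped from each to the next. Myo9b and Myo6 headed the order in both lines, and Myo9a was the only one of the 3 highest in WT cells that lay lower in the order in KO cells.

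The summed level of the 10 genes overlapped between the lines. It was 95.5 ± 8.1 CPM per kb in the KO line and 89.3 ± 3.4 CPM per kb in the WT line (exact permutation p = 0.3). Myo3b, Myo5b, Myo5c, Myo7a and Myo7b together held 24.8 ± 1.1% of it in the KO line and 0.198 ± 0.11% in the WT line. Myo9a held 6.74 ± 0.73% in the KO line and 25.1 ± 0.83% in the WT line, and Myo9b 29.8 ± 0.93% in the KO line and 29.9 ± 0.91% in the WT line.

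**Figure D4:**
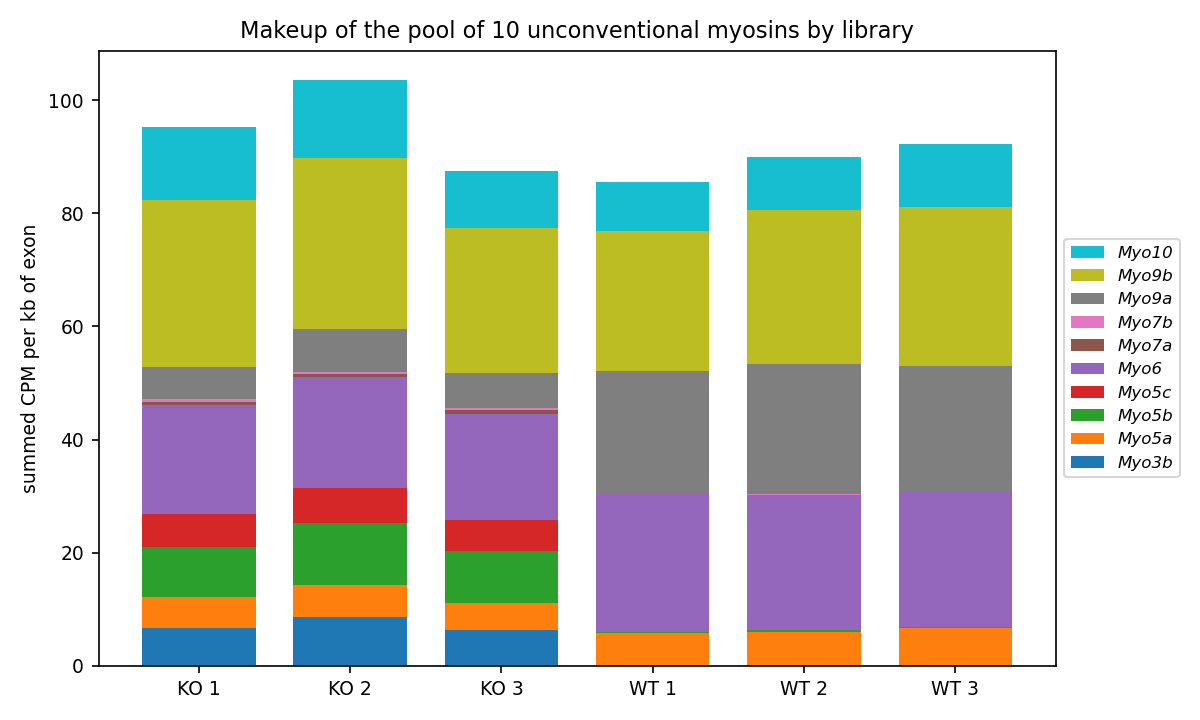
Summed CPM per kilobase of exon of the 10 genes (bar height) in the 3 KO libraries, left, and the 3 WT libraries, right, divided by gene. Myo3b, Myo5b and Myo5c fill a visible part of the KO bars only, Myo9a (grey) a larger part of the WT bars, and the bar heights of the lines overlap.

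On the list of other unconventional myosins, 4 of 6 tested genes were higher and 1 lower in the KO line (66.7% and 16.7%). Over all genes tested these shares were 34.3% and 33.8%. Both tested genes outside class I rose in the KO line. They were Myo18a, at 375 ± 17 CPM in KO cells and 307 ± 18 CPM in WT cells (log2 fold change 0.29, adjusted p = 0.0122 by limma), and the mitochondrial motor Myo19, at 14.9 ± 0.45 CPM in KO cells and 11.8 ± 1.1 CPM in WT cells (log2 fold change 0.33, adjusted p = 0.0312). Myo15b, which was named after its values were seen, was at 3.15 ± 0.63 CPM in KO cells and 0.421 ± 0.028 CPM in WT cells (log2 fold change 2.81, adjusted p = 1.20e-05 by limma). It exceeded the filter in no WT library, so it entered the test through the KO line alone and had to differ.

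Known partners of these motors were then counted by class. Of 31 tested cargo adaptors and regulators of class V, 15 rose and 8 fell (48.4% and 25.8%, against 34.3% and 33.8% of all genes tested, median log2 fold change 0.21). Here and in the lists that follow, rose and fell refer to the limma call, KO relative to WT. As with the members, a gene above the filter in the libraries of 1 line alone had to differ. This was so for Rab25, which was above it in no WT library, and for Sytl4 and Mreg, which were above it in no KO library. Rab25, a Rab11 relative of epithelia, rose to 87.9 ± 4.8 CPM in the KO line, against 0.152 ± 0.10 CPM in the WT line. The recycling adaptor Rab11fip1 was at 87.5 ± 9.0 CPM in KO cells and 31.4 ± 1.5 CPM in WT cells, and the synaptotagmin-like protein Sytl1 at 50.1 ± 4.9 CPM in KO cells and 12.1 ± 2.3 CPM in WT cells. The named genes that fell were Rabs, but other Rabs of the list rose. Among these was Rab27a, which lay below the 10 CPM asked of named genes. It was at 8.70 ± 0.35 CPM in KO cells and 1.90 ± 0.49 CPM in WT cells. Rab38 was at 1.84 ± 0.64 CPM in KO cells and 14.4 ± 2.8 CPM in WT cells, Rab32 at 27.0 ± 2.9 CPM in KO cells and 64.5 ± 7.4 CPM in WT cells, and Rab27b at 5.03 ± 0.64 CPM in KO cells and 11.4 ± 1.9 CPM in WT cells. The light chain Dynll1 did not pass, at 121 ± 20 CPM in KO cells and 134 ± 20 CPM in WT cells.

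Of 15 tested class VI adaptors, 8 rose and 6 fell (53.3% and 40.0%, median log2 fold change 0.28). Gipc2 exceeded the filter in no WT library. Gipc2 rose to 59.1 ± 4.2 CPM in the KO line, against 0.0275 ± 0.028 CPM in the WT line, and the endosomal adaptor Tom1l1 to 70.2 ± 0.46 CPM in KO cells, against 9.32 ± 1.2 CPM in WT cells. The kinase Lmtk2 was at 108 ± 9.2 CPM in KO cells and 75.3 ± 2.4 CPM in WT cells. Dab2, which links Myo6 to clathrin-coated pits, fell to 224 ± 83 CPM in the KO line, against 454 ± 82 CPM in the WT line. Clic4 fell to 171 ± 13 CPM in the KO line, against 547 ± 45 CPM in WT cells, and Plekhg5 to 15.6 ± 1.5 CPM in KO cells, against 58.9 ± 5.3 CPM in WT cells. Calcoco1 did not pass, at 159 ± 5.5 CPM in KO cells and 181 ± 14 CPM in WT cells.

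Of 19 tested genes of microvilli and stereocilia, where classes III and VII act, 12 rose and 2 fell (63.2% and 10.5%, median log2 fold change 0.94). Cdh23, Pls1, Eps8l1 and Adgrv1, 4 of the 12 that rose, exceeded the filter in no WT library and so could be called in 1 direction only. Among those that rose were the microvillar bundling protein Pls1, at 40.1 ± 1.5 CPM in KO cells and 0.332 ± 0.095 CPM in WT cells, and the capping and bundling genes Eps8l1, at 40.5 ± 3.0 CPM in KO cells against 0.413 ± 0.10 CPM in WT cells, and Eps8, at 69.5 ± 2.7 CPM in KO cells against 11.8 ± 3.2 CPM in WT cells. Slc9a3r2 fell to 13.0 ± 1.5 CPM in the KO line, against 22.9 ± 1.4 CPM in WT cells, and Twf2 to 13.5 ± 0.91 CPM in KO cells, against 23.1 ± 2.7 CPM in WT cells. Moesin, Msn, did not pass, at 1365 ± 111 CPM in KO cells and 1341 ± 92 CPM in WT cells. The higher levels of Myo3b, Myo5b, Myo5c, Myo7a and Myo7b and of these microvillar genes went with the epithelial marker list given above. That list was at 8944 to 9677 CPM in KO libraries against 363 to 369 CPM in WT libraries. With 1 line per genotype, the same holds for any gene higher in the KO line. The part of the marker difference in the result was not tested.

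Of 33 tested genes of filopodia and class X cargo, 10 rose and 16 fell (30.3% and 48.5%, median log2 fold change -0.36). Bmpr1b exceeded the filter in no WT library, and Dcc and Pdpn in no KO library. The filopodial bundler Fscn1 fell to 4.45 ± 1.3 CPM in the KO line, against 642 ± 96 CPM in the WT line, while Myo10 itself did not pass. The formin Fmnl3 fell to 68.5 ± 8.8 CPM in the KO line, against 388 ± 17 CPM in WT cells, and the netrin receptor Unc5b to 39.3 ± 10 CPM in KO cells, against 217 ± 25 CPM in WT cells. Baiap2, which bends membrane into filopodia, rose to 210 ± 55 CPM in the KO line, against 38.4 ± 3.1 CPM in WT cells. The formin Daam1 rose to 97.7 ± 7.2 CPM in KO cells, against 29.0 ± 2.1 CPM in WT cells, and Srgap3 to 115 ± 3.8 CPM in KO cells, against 36.0 ± 4.2 CPM in WT cells. Itgb5 did not pass, at 345 ± 47 CPM in KO cells and 429 ± 59 CPM in WT cells.

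Of 14 tested light chains and chaperones, 6 rose and 4 fell (42.9% and 28.6%, median log2 fold change 0.07). Calml3 and Myl4 exceeded the filter in no KO library. The calmodulin gene Calm2 was at 245 ± 21 CPM in KO cells and 391 ± 22 CPM in WT cells. The light chain Myl12b was at 58.5 ± 1.3 CPM in KO cells and 21.2 ± 0.80 CPM in WT cells, Cib1 at 44.7 ± 6.3 CPM in KO cells and 26.4 ± 2.8 CPM in WT cells, and the chaperone Hsp90aa1 at 764 ± 37 CPM in KO cells and 504 ± 64 CPM in WT cells. The light chain Myl6 did not pass, at 385 ± 47 CPM in KO cells and 430 ± 45 CPM in WT cells.

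**Figure D5:**
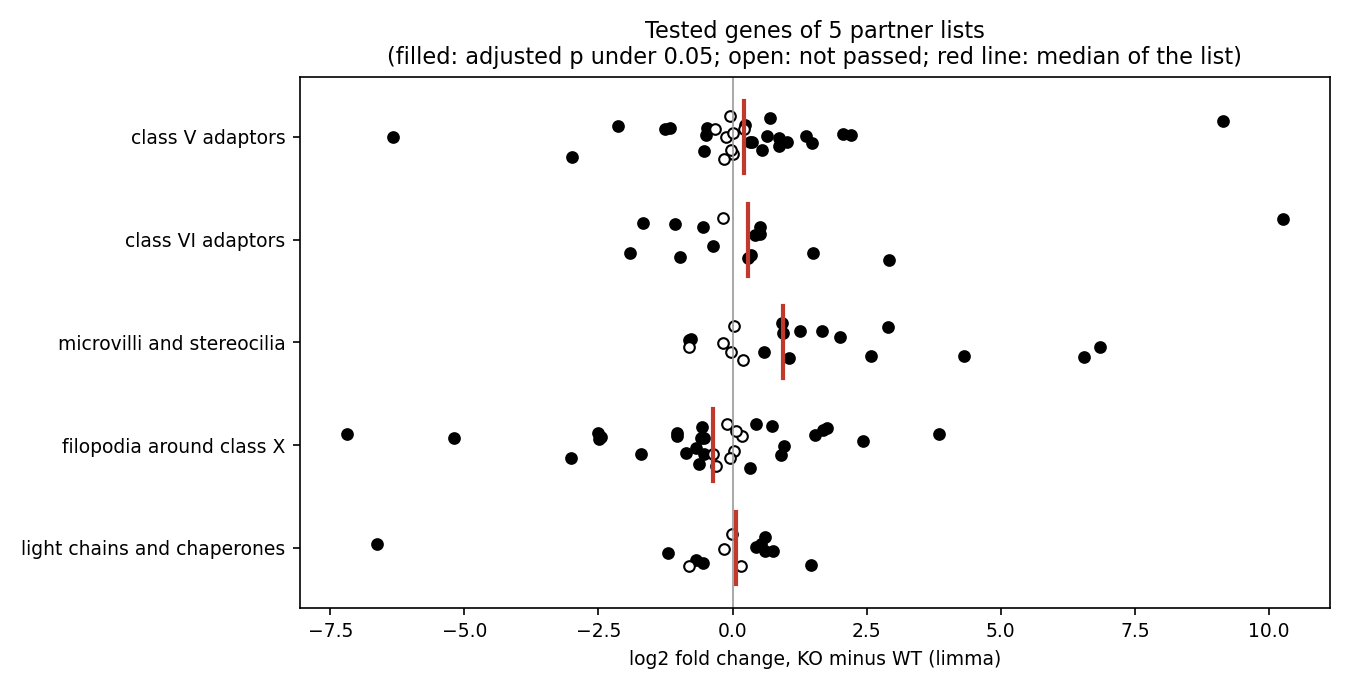
Log2 fold change, KO minus WT, of each tested gene of the 5 partner lists (points, filled where the adjusted p was under 0.05, spread vertically for legibility), with a red line at each list's median. The medians run from -0.36 for the filopodial list to 0.94 for the microvillar list, and every list holds genes on both sides of 0.

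The nearest tested gene on each side that did not overlap the member was read for every member. Over all genes tested 68.1% passed, 34.3% higher and 33.8% lower in the KO line, so calls among neighbours are common whatever the member. The neighbours of Myo5c were Myo5a, described above, and Gnb5, which starts 0.837 kb after the end of Myo5c and was at 43.7 ± 5.7 CPM in KO cells and 18.6 ± 3.1 CPM in WT cells (log2 fold change 1.24, adjusted p = 8.44e-05 by limma). Arpp19, on the other side of Myo5a, was higher in the KO line by a log2 fold change of 0.30. Beside Myo3b lay Ubr3, at 191 ± 23 CPM in KO cells and 154 ± 5.6 CPM in WT cells, and Sp5, at 1.40 ± 0.10 CPM in KO cells and 2.98 ± 1.3 CPM in WT cells, so 1 neighbour was higher and the other lower.

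Both neighbours of Myo7a were also higher in the KO line. Capn5, 2.035 kb away, was at 139 ± 7.2 CPM in KO cells and 61.1 ± 2.3 CPM in WT cells (log2 fold change 1.19), and Pak1, 139 kb away, at 57.1 ± 3.4 CPM in KO cells and 4.70 ± 2.0 CPM in WT cells (log2 fold change 3.68). Both neighbours of Myo5b fell, Acaa2 to 44.9 ± 10 CPM in KO cells, against 96.9 ± 15 CPM in WT cells (log2 fold change -1.12), and Mbd1, 158 kb away, to 81.2 ± 6.3 CPM in KO cells, against 94.8 ± 5.8 CPM in WT cells (log2 fold change -0.23). Lims2 and Iws1 beside Myo7b did not pass (log2 fold changes 0.19 and -0.03). Map1s, 355 kb before Myo9b, and Use1 after it did not pass either (-0.16 and -0.14). Haus8, which overlaps the start of Myo9b, was not taken as a neighbour. Beside Myo9a, which fell, both neighbours rose. Senp8 lies 0.186 kb from it on the other strand and was at 12.8 ± 1.5 CPM in KO cells and 9.70 ± 1.5 CPM in WT cells (log2 fold change 0.40, adjusted p = 0.0435 by limma), and Thsd4 had a log2 fold change of 1.23. Senp6 and Htr1b on the sides of Myo6, which fell, also rose (0.32 and 1.27, with Htr1b 1317 kb away). Basp1 and Retreg1 on the sides of Myo10 rose (2.49 and 0.23, with Basp1 209 kb away).

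The tested genes with the most similar pattern were taken as those at the smallest Euclidean distance from each member over the 6 log2 CPM values. For Myo3b the nearest of 12616 was the kinase gene Mapk13 (distance 0.789), at 57.6 ± 5.0 CPM in KO cells and 0.0180 ± 0.016 CPM in WT cells, followed by Gipc2, the class VI adaptor named above (1.05). For Myo5c it was the membrane protease gene Prss8 (0.560), at 49.8 ± 4.2 CPM in KO cells and 0.0862 ± 0.031 CPM in WT cells, followed by the tricellular junction gene Marveld2 (0.913). The nearest genes to Myo5b were further off, with Misp, a gene of actin bundles and the spindle, at 1.62. Myo9a was nearest to the Hippo gene Sav1 (0.449), at 90.1 ± 9.0 CPM in KO cells and 280 ± 19 CPM in WT cells, and to the semaphorin genes Nrp2 (0.458) and Sema3f (0.506). Myo6 had Prpf19 at 0.107 and Myo9b had Tbl1x at 0.0940.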

How the data were processed

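The members and lists were chosen with earlier results of these data known. The authors deposited log2 CPM values, 1 column per library. STAR 2.7.3a, Trimmomatic 0.39, Subread 1.6.4, edgeR and featureCounts are named in the submitters' processing notes, with build GRCm38. The sources used here give neither the annotation, nor the strand setting, nor the prior.

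From the deposited log2 values, whole reads were worked back with the shared lowest value (-5.26) and the smallest step of each column. Within a tolerance of 0.001 reads, 100% of values were whole. CPM values in the text are these reads on the authors' scaled library size, without the prior.

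Symbols were matched to GENCODE M21 (GRCm38), and exon lengths are the union of its annotated exons. limma 3.58.1 (R 4.3.3, lmFit and eBayes with an intensity trend, no covariates) tested 12616 genes, those above 0 log2 CPM in 3 or more of the 6 libraries, with Benjamini-Hochberg adjustment. The remaining 187 genes were listed and not tested. The procedure was tested on simulated data. Shares and sums were compared by exact two-sided permutation tests over libraries. From each partner list, up to 3 risen and 3 fallen genes were named by the size of the log2 fold change, among those with at least 10 CPM in the higher line and groups that did not overlap, with the most abundant gene that did not pass. Some genes and 1 gene list are not reported here.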

Additional observations from a re-analysis of the deposited data

How the results depend on the processing

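The counts of members and of genes past the threshold, and those of each partner list given, stayed within 1.5 times under all 15 alternatives (members 4 to 6 higher and 2 to 3 lower). With a filter at more than 1 log2 CPM, Myo7b was not tested. The log2 fold changes of Myo3b, Myo5b, Myo5c, Myo7a and Myo7b fell with larger pseudocounts, to 3.45, 3.97, 3.61, 1.00 and 0.59 at 5 CPM, and each still passed. Myo10 passed under 3 alternatives and Myo5a under 1, as given with their values. Leaving out each library in turn gave differences in class V share, KO minus WT, of -72.8 to -71.5 percentage points for Myo5a. Without division by exon length, the differences were -64.0 for Myo5a, 39.2 for Myo5b and 24.7 for Myo5c of class V and -31.1 for Myo9a of class IX (by construction, from the exon lengths). The share of Myo7b within class VII, 9.20 percentage points higher in KO, reversed to -5.51 without WT replicate 3, where the gene had 0 reads, and ranged from -5.51 to 20.8 over the libraries left out. Same-numbered KO and WT libraries had deviations from their group means that correlated at 0.101, 0.0811 and -0.0951. Libraries of unlike number correlated at -0.217 to 0.177, so no pairing by number was seen, though so few libraries cannot exclude it. With the replicate block, 4218 genes were higher and 4177 lower (4329 and 4261 without it), and the members' counts were 5 and 2. Depth limits the WT levels of Myo3b, Myo5c, Myo7a and Myo7b, which rest on 3 to 18 reads in all.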
